A study of Mus musculus with 10 samples.

Results

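The 42 genes described here encode the core of the cell cycle engine and its brakes: the D-, E-, A-, B-, F- and G-type cyclins, the cyclin-dependent kinases (CDKs) Cdk1, Cdk2, Cdk4 and Cdk6, the CDK inhibitors, the phosphatases and the kinase Wee1 that act on CDKs, the E2F factors with their DP partners, the pocket proteins of the RB family, and the B-Myb, Foxm1 and MuvB genes. They were chosen by name, with earlier results of these data known but no measured value in the rule, and all 42 were found among the 55809 gene rows. They were read in 10 bulk RNA-seq libraries of regulatory T (Treg) cells from spleen and lymph nodes. All mice carried Foxp3-AID, an endogenous Foxp3 allele whose product is joined to an auxin-inducible degron, together with the ZsGreen reporter and Cre recombinase, and all received 5-ph-IAA, an auxin analog, for 14 days. The 4 R26-WT libraries came from mice with an unmodified ROSA26 locus. The 6 R26-TIR1(F74G) libraries came from mice whose ROSA26 locus encodes the mutated plant E3 ligase TIR1(F74G) and an mCherry reporter, both of which are made only after Cre removes a STOP cassette, so that 5-ph-IAA targets the Foxp3 fusion protein for degradation in cells that have expressed Foxp3. The labels give no age or sex. For Treg cells after 14 days of degradation, the paper names neonatal and adult males with Foxp3-AID as their only Foxp3 allele. The paper reports inflammation in such males after degradation, mild in adults and severe in neonates, and its part here was not tested. The study's general sorting scheme used mCherry as well as ZsGreen only where TIR1 was present, so genotype and gate may have differed together. Libraries held from 24158699 to 54795718 counted read pairs.

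In a resting cell, RB-family pocket proteins hold E2F factors in check, and the DREAM assembly of p130 (Rbl2), E2f4 or E2f5, a DP partner and MuvB proteins keeps cell cycle genes silent. Mitogenic signals raise D-type cyclins, which with Cdk4 or Cdk6 phosphorylate the pocket proteins. Released activator E2F factors then switch on E-type cyclins and other G1/S genes, and B-Myb, MuvB and Foxm1 later switch on G2/M genes such as the B-type cyclins. Inhibitors of the Ink4 family (Cdkn2c, Cdkn2d) bind Cdk4 and Cdk6, whereas those of the Cip/Kip family (Cdkn1a, Cdkn1b) bind cyclin-CDK complexes more broadly. Treg cells of healthy lymphoid organs are mostly resting, with a cycling fraction among the activated cells. From this textbook knowledge 9 members were set down as genes with a G1/S peak of transcript and 9 as genes with a G2/M peak, and the other 24 as genes without a marked peak.

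Promoter sequence is shown first, because the periodic members are textbook targets of the CHR element (cell cycle genes homology region), the CCAAT box and the E2F site. RefSeq promoter windows of build GRCm38.p6, each with 250 bases before and 50 after a gene's start, were held for 31 of the 42 members. The other 11, Rb1, Ccna2, E2f4, Foxm1, E2f5, Ccnd2, Cdc25c, Lin9, Ccne2, Wee1 and Ccnd1, are named only. Both strands were searched for the CHR letters TTTGAA or TTCGAA, for CCAAT, and for the E2F letters TTTCCCGC, TTTGGCGC, TTTCGCGC or TTTGCCGC, and no match of one motif overlapped another. A CHR and a CCAAT match stood together in 5 of the 6 G2/M members with a window (83.3%), in 2 of 8 G1/S members (25%), in 3 of 17 other members (17.6%) and in 8.61% of all 27025 genes with a window. An E2F match was found in 8 of the 31 members (25.8%) and in 2.6% of all genes. The 4 G2/M members that were called higher below and have a window are printed with all matches in capitals, from 250 bases before to 30 after the start, together with Cdk6, which was called higher with none of these letters in its window. They run from the 5′ to the 3′ end on the gene's strand, and lie at chr10:69352883-69353162 (minus, Cdk1), chr9:70421525-70421804 (minus, Ccnb2), chr17:24251380-24251659 (minus, Ccnf), chr14:46760291-46760570 (plus, Cdkn3) and chr5:3343643-3343922 (plus, Cdk6).
Cdk1: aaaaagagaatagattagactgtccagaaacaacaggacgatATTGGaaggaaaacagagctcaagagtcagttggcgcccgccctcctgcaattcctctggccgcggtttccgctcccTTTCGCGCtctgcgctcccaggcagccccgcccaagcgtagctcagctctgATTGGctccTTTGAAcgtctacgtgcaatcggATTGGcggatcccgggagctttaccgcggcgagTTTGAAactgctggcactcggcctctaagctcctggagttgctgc
Ccnb2: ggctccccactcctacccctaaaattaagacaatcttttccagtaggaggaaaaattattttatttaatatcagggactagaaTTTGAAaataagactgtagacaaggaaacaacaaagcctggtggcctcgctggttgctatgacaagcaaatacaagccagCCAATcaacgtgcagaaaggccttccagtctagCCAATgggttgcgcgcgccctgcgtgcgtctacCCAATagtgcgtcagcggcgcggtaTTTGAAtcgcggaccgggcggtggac
Ccnf: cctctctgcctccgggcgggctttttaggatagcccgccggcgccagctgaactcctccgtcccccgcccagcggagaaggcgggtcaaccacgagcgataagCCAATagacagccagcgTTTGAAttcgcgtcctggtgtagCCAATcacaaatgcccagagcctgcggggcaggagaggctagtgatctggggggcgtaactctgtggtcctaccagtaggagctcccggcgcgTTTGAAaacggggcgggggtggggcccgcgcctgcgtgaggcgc
Cdkn3: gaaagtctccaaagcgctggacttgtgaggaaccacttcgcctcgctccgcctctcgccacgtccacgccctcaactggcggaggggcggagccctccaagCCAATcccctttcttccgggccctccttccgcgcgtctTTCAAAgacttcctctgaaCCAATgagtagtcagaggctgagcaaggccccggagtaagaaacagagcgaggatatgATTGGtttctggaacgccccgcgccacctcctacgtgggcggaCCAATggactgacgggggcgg
Cdk6: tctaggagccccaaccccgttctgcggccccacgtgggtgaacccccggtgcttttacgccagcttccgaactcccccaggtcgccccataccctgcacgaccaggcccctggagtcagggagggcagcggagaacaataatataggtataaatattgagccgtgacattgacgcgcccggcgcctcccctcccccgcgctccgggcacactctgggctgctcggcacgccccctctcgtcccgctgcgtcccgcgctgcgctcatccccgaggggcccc

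Cdk1 carried all 3 kinds of match, with an E2F match that began at base -131 relative to the start and CHR matches at -71 and -15. Ccnb2 had CHR matches at -167 and 5, with CCAAT boxes at -87, -54 and -21 between them. In Ccnf a CCAAT box stood on each side of the CHR match at -130, with a further CHR match at -14, and Cdkn3 had its CHR match at -111 on the opposite strand. Matches were not limited to called genes. Among members with a window, CHR and CCAAT stood together in 4 of 9 that were called (44.4%) and in 6 of 22 that were not (27.3%), and the called genes E2f1, Mybl2 and Cdk6 held none of the 3 motifs. Only these exact letters within the windows were searched, so a missing match does not mean that a site is absent.

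The comparison of the groups asks how the transcripts of the cell cycle engine in Treg cells differed after 14 days of Foxp3 protein degradation, which was not measured in these files. Of the 42 members, 41 had a mean count of at least 10 and were tested with DESeq2. It called 12 higher in R26-TIR1(F74G) and 0 lower at a Benjamini-Hochberg adjusted p under 0.05: E2f1, E2f7, Ccne2, Mybl2, Cdk1, Ccna2, Ccnb2, Ccnf, Cdkn3, Wee1, Cdkn2c and Cdk6. That was 29.3% of the tested members, where 1.4% of all 16363 tested genes were called higher and 0.336% lower. The genes that rose were 9 of the 18 G1/S and G2/M members together with Cdk6, Wee1 and the inhibitor Cdkn2c, and 8 of the 12 rose at least 2-fold. Ccnd2, Ccnd3, Cdk4, Cdk2, Rb1, Rbl2 and E2f4 were not called and had log2 fold changes between -0.06 and 0.16.

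edgeR's quasi-likelihood test was stricter and called 3 members higher, E2f1, Cdk1 and Cdk6, and 0 lower, where it called 0.33% of all genes higher and 0.0428% lower. Limma voom with quality weights also called 3 higher and 0 lower, where it called 0.422% of all genes higher and 0.0672% lower. At an unadjusted p under 0.05, DESeq2 had 19 members higher and 2 lower, against 4.17% and 2.68% of all tested genes, and edgeR 18 and 2, against 3.59% and 2.62%. The normalized counts (counts divided by DESeq2 size factors) of the groups did not overlap in 10 members that were higher and 2 that were lower, against 1.57% and 0.801% of all tested genes. All of the 10 were called, and Wee1 and Cdkn2c were called with overlap. The 2 lower ones, Cdkn1b and E2f5, were not called. In bulk libraries, more cycling cells and more transcript per cell cannot be told apart.

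**Figure D1:**
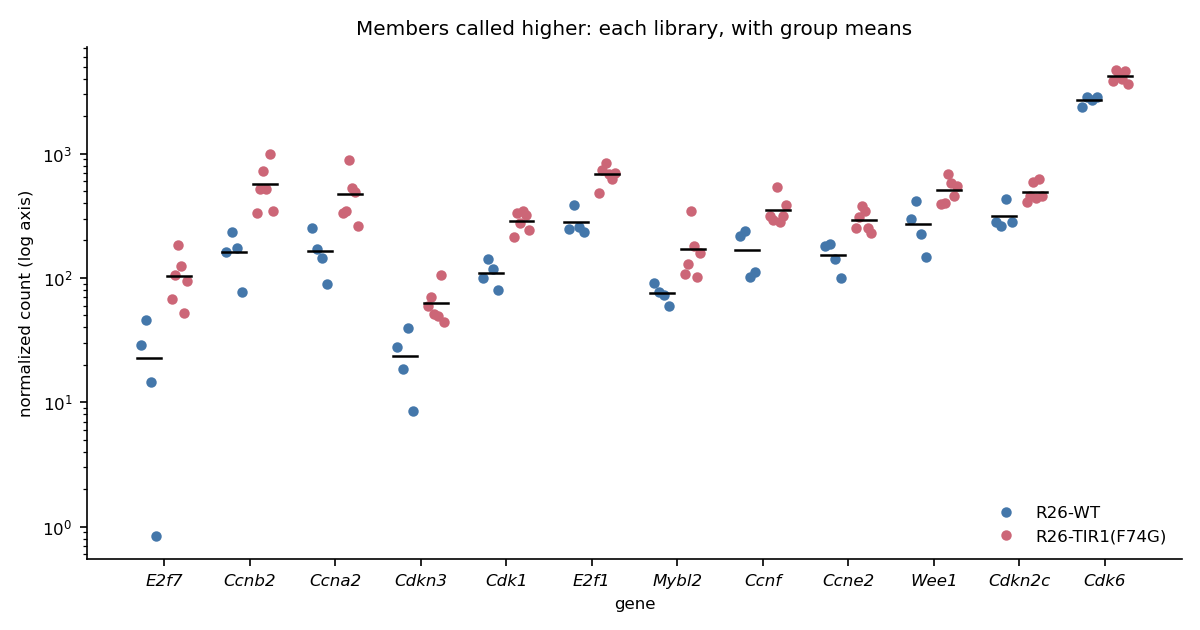
Normalized counts on a log axis of the 12 members called higher, ordered by fold change, with 1 point per library (4 R26-WT, 6 R26-TIR1(F74G)) and a line at each group mean. Points of the groups overlap in Wee1 and Cdkn2c, and the lowest point is E2f7 in R26-WT replicate 4, at 0.846.

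One library of each group stood at the end of the range most often. R26-WT replicate 4 was the lowest of all 10 libraries in 9 of the 12 called members, and R26-TIR1(F74G) replicate 7 the highest in 7. Without R26-WT replicate 4, DESeq2 called 7 members higher, with Ccnf, Cdkn2c, Cdkn3, Wee1 and Mybl2 lost. Without R26-TIR1(F74G) replicate 7 it called 10, and without both libraries, a setting chosen after the data were seen, 7. Calls over all genes fell as well, from 284 in the main fit to 159 without both libraries. The calls of E2f1, Ccna2, Ccne2, Cdk6, Ccnb2 and Cdk1 held without any one of the 10 libraries.

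Among the S and M phase kinase genes, Cdk1 rose together with the cyclins Ccna2, Ccnb2, Ccnf and Ccne2, while Ccnb1, Ccne1 and Cdk2 did not pass the test. Cdk1 drives entry into mitosis with A- and B-type cyclins, and its gene lies at 69170976 to 69188768 on the minus strand of chromosome 10 in GRCm39, the build of the counts. It had 99.5, 142, 119 and 79.5 normalized counts in R26-WT replicates 1 to 4, and 214 to 347 (median 299) in R26-TIR1(F74G). Every R26-TIR1(F74G) library was above every R26-WT library. The difference was 2.63-fold (95% interval 1.99 to 3.48), with a log2 fold change of 1.39 (SE 0.21, adjusted p 1.12e-08 in DESeq2 and 0.0135 in edgeR).

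Ccnb2, a B-type cyclin that activates Cdk1 at mitosis, had the largest fold change of the called cyclins. Its R26-WT libraries had 161, 234, 173 and 77.0, and those of R26-TIR1(F74G) 335 to 999 (median 517). Replicate 9 was the highest there, replicate 5 the lowest, and the groups did not overlap. Ccnb2 rose 3.55-fold (95% interval 2.24 to 5.63) with a log2 fold change of 1.83 (SE 0.34, adjusted p 2.10e-05 in DESeq2), and missed the threshold in edgeR (adjusted p 0.0639). Its sister Ccnb1 had 83.6, 52.1, 55.3 and 17.8 in R26-WT and 69.4 to 162 (median 113) in R26-TIR1(F74G). Those ranges met only through R26-WT replicate 1, and the log2 fold change of 1.08 (SE 0.36) was not called (adjusted p 0.103). Without that library it was 1.41 and called (DESeq2 adjusted p 0.0133), and with a surrogate variable 1.02 and called (DESeq2 adjusted p 0.0487). Over all fits without a library it ran from 0.80 to 1.41. In the reference transcripts 18.2% of the 50-base stretches of Ccnb1 also occur in other genes, Ccnb1-ps among them, so its count is less certain.

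Ccna2, the cyclin that partners Cdk2 in S phase and Cdk1 in G2, had 254, 172, 145 and 88.8 in R26-WT and 259.6 to 884 (median 419) in R26-TIR1(F74G). The highest R26-WT library, replicate 1, lay just under the lowest R26-TIR1(F74G) library, replicate 10. The log2 fold change was 1.52 (SE 0.34, adjusted p 0.00145 in DESeq2 and 0.130 in edgeR). The counts carry no strand, and exons of Exosc9 on the opposite strand cover 12.5% of those of Ccna2. Ccnf, the F-box cyclin of an SCF ubiquitin ligase that limits S and M phase proteins, had 217, 238, 103 and 112 against 281 to 542 (median 314). R26-WT replicates 3 and 4 stood at less than the level of replicates 1 and 2, and all 4 stayed below the R26-TIR1(F74G) libraries. Its log2 fold change was 1.08 (SE 0.28, adjusted p 0.00898 in DESeq2 and 0.172 in edgeR). Without R26-WT replicate 3 or 4 it was 0.91 or 0.94 and not called.

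The E-type cyclins, which start S phase with Cdk2, did not move to the same extent, although the difference between them was not tested. Ccne2 had 182, 187, 142 and 101 in R26-WT and 232 to 381 (median 282) in R26-TIR1(F74G), with no overlap. Its log2 fold change was 0.95 (SE 0.22, adjusted p 0.00173 in DESeq2 and 0.0991 in edgeR). Exons of Ints8 on the opposite strand cover 17.4% of those of Ccne2. Ccne1 had 648, 575, 489.9 and 539 against 539.8 to 936 (median 720.2), a log2 fold change of 0.35 (SE 0.16) that was not called (adjusted p 0.555). R26-TIR1(F74G) replicate 7, often the highest library, was the lowest of its group here. Cdk2, the partner kinase, had 2943, 2997, 2348 and 2747 against 2538 to 3284 (median 2663). The 95% interval of its log2 fold change ran from -0.24 to 0.23.

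Of the D-type cyclins and their kinases, which relay mitogenic signals to the pocket proteins, Cdk6 alone was called. Cdk6 lies at 3391485 to 3581008 on the plus strand of chromosome 5 and had 2381, 2848, 2683 and 2832 normalized counts in R26-WT. In R26-TIR1(F74G) it had 3654 to 4669.7 (median 4119.8). The groups were tight and well apart, with a coefficient of variation of 8.07% in R26-WT and close to that in R26-TIR1(F74G), and Cdk6 rose 1.55-fold (95% interval 1.33 to 1.81). The log2 fold change was 0.64 (SE 0.11, adjusted p 5.13e-06 in DESeq2 and 0.0263 in edgeR). With a trend on gene length removed it was 0.55 and no longer called, and Cdk6 has long exons, 13989 bases in all.

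Cdk4 had 9217, 8799.8, 12626 and 12422 in R26-WT and 8802 to 12097 (median 10873) in R26-TIR1(F74G). The R26-WT range held all R26-TIR1(F74G) libraries, with replicates 3 and 4 high and replicates 1 and 2 low, and the 95% interval of the log2 fold change ran from -0.29 to 0.29. Exons of Tspan31 on the opposite strand cover 19.7% of those of Cdk4. Ccnd2 had 46328, 47153, 57586 and 57004 against 36674 to 58622 (median 51380.0), with R26-TIR1(F74G) replicate 7 the lowest of all libraries (95% interval of the log2 fold change -0.36 to 0.25). Ccnd3 had 15391, 16926, 16948 and 17223 against 16761 to 21399 (median 17974) (95% interval -0.04 to 0.35). For these 3 genes the DESeq2 adjusted p was 0.99996. Ccnd1, at 15.9, 6.89, 6.51 and 6.77 normalized counts in R26-WT and 3.54 to 15.7 (median 7.69) in R26-TIR1(F74G), was too low to be tested, and exons of LTO1 on the opposite strand cover 23.4% of its own.

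Levels of different genes were compared per kb of exon. Ccnd2 stood above Ccnd3 by 2.92 ± 0.262 times in R26-WT (SD, n = 4) and by 2.51 ± 0.295 times in R26-TIR1(F74G) (SD, n = 6), and Ccnd1 was far below both. Cdk4 was the most abundant of the 4 kinase genes in both groups. The ratio of Cdk4 to Cdk6 per kb was 17.3 ± 3.04 in R26-WT and 11.2 ± 1.45 in R26-TIR1(F74G), and the ratio of Cdk2 to Cdk1 was 20.8 ± 5.58 and 7.75 ± 1.52. In the latter pair the lowest R26-WT library, at 15.7, lay above the highest R26-TIR1(F74G) library.

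**Figure D2:**
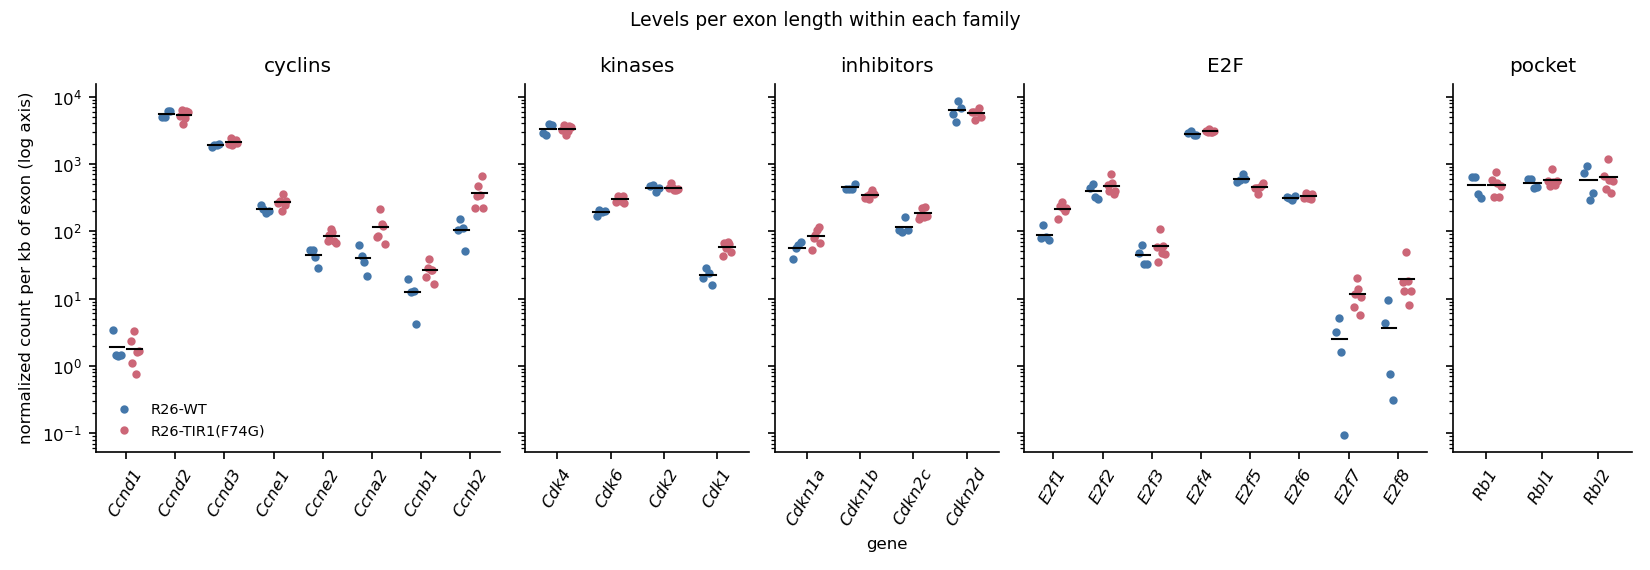
Normalized counts per kb of exon on a log axis for cyclins, kinases, inhibitors, E2F factors and pocket proteins, with 1 point per library (4 R26-WT, 6 R26-TIR1(F74G)) and a line at each group mean. Ccnd2, Cdk4, Cdkn2d and E2f4 lead their families in both groups, and Ccnd1 is near the floor, with group means of 1.92 and 1.80.

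The G-type cyclins are not periodic in the way of the others, and Ccng2 is known as a gene of resting cells. Ccng1 had 10467, 10646, 6044 and 7145 in R26-WT against 7829 to 9558 (median 9008) in R26-TIR1(F74G), and Ccng2 7869, 7980.2, 6251 and 7544 against 6743 to 7169 (median 7010.4). In both genes the R26-TIR1(F74G) libraries lay inside the R26-WT range. The log2 fold changes were 0.03 (SE 0.17) and -0.09 (SE 0.09).

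The CDK inhibitors did not move together. Cdkn2c (p18), an Ink4 inhibitor that is also transcribed by E2F factors, had 280.3, 262, 431 and 284 in R26-WT and 405 to 619.7 (median 453) in R26-TIR1(F74G). R26-WT replicate 3 was the one that reached into the other group. The log2 fold change of 0.65 (SE 0.19) was just past the DESeq2 threshold (adjusted p 0.0411, edgeR 0.245), and the call was lost, at 0.57 to 0.68, without any one library but R26-WT replicate 3 and R26-TIR1(F74G) replicate 5. Of the exons of Cdkn2c 12.7% are covered from the opposite strand. Cdkn2d (p19), the other Ink4 member, had 8578, 6665, 13447 and 10692 against 7086 to 10645 (median 9248). Its 4 R26-WT libraries spanned a 2.02-fold range that held all R26-TIR1(F74G) libraries (log2 fold change -0.15, SE 0.19).

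Cdkn1b (p27), the Cip/Kip inhibitor linked to quiescence, had 1952, 1939, 1953 and 2298 in R26-WT and 1378 to 1892 (median 1578) in R26-TIR1(F74G). All R26-TIR1(F74G) libraries lay below all R26-WT libraries, replicate 9 by the smallest margin. The log2 fold change of -0.37 (SE 0.12) did not pass the test (DESeq2 adjusted p 0.106, edgeR 0.305). Cdkn1b was called lower without R26-TIR1(F74G) replicate 9, at -0.42, and in the fit with a surrogate variable, at -0.33. Cdkn1a (p21), the p53 target, had 136, 199, 224 and 245 against 187 to 416 (median 295), a log2 fold change of 0.58 (SE 0.24, adjusted p 0.401). Of the 6, 4 R26-TIR1(F74G) libraries were above the R26-WT range and replicates 5 and 10 within it. Per kb, Cdkn1b exceeded Cdkn1a by 8.23 ± 2.00 times in R26-WT and 4.32 ± 1.06 times in R26-TIR1(F74G), and the lowest R26-WT ratio, 6.81, was above the highest R26-TIR1(F74G) ratio, 5.89.

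Of the enzymes that set the phosphorylation of CDKs, Cdkn3, a phosphatase that removes the activating phosphate of Cdk2, had low counts. There were 27.9, 18.7, 39.9 and 8.46 in R26-WT and 44.3 to 106 (median 55.0) in R26-TIR1(F74G), without overlap. The log2 fold change was 1.42 (SE 0.39, adjusted p 0.023 in DESeq2 and 0.244 in edgeR). The call was lost without R26-WT replicate 1, 2 or 4 or without R26-TIR1(F74G) replicate 6 or 9, with values from 1.13 to 1.502. Wee1, the kinase that holds Cdk1 inactive, had 296, 415, 227 and 147 against 394 to 682 (median 504). R26-WT replicate 2 stood above R26-TIR1(F74G) replicates 5 and 6, and the log2 fold change was 0.91 (SE 0.26, adjusted p 0.0373 in DESeq2 and 0.245 in edgeR). This call was lost without R26-WT replicate 1, 3 or 4 or without R26-TIR1(F74G) replicate 7, 8 or 10, with values from 0.71 to 0.96. The Cdc25 phosphatases, which undo the work of Wee1, were not called. Their log2 fold changes were 0.20 for Cdc25a, 0.14 for Cdc25b and 1.33 for Cdc25c, the last with a count of 0 in R26-WT replicate 4 and 64 in replicate 1. Without R26-WT replicate 1, Cdc25c was at 2.39 and called (DESeq2 adjusted p 0.00633). Over all fits without a library it ran from 0.92 to 2.39. Of its exons 12.7% are covered from the opposite strand, and 25.8% of its 50-base stretches occur in other genes.

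The E2F factors did not move together. E2f1, an activator that binds RB, lies at 154401327 to 154411812 on the minus strand of chromosome 2 and had 248, 386, 259 and 233 normalized counts in R26-WT. In R26-TIR1(F74G) it had 484 to 846 (median 691). The lowest R26-TIR1(F74G) library, replicate 5, was above the highest R26-WT library, replicate 2. E2f1 rose 2.42-fold (95% interval 1.86 to 3.14), a log2 fold change of 1.27 (SE 0.19, adjusted p 3.32e-08 in DESeq2 and 0.0138 in edgeR). The other activators were not called. E2f2 had a log2 fold change of 0.28 (SE 0.22). E2f3 had 262, 334, 178 and 175 in R26-WT against 189 to 593 (median 288) in R26-TIR1(F74G), where replicate 7 alone lay above the R26-WT range (log2 fold change 0.44, SE 0.30).

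E2f7 and E2f8, atypical repressors that E2F1 induces and that damp the G1/S genes again, had the highest fold changes of the members and very low counts. E2f7 had 28.7, 46.2, 14.6 and 0.846 in R26-WT, the last of these a single read pair, and 51.9 to 183 (median 99.7) in R26-TIR1(F74G). The groups did not overlap. The log2 fold change of 2.21 (SE 0.56, adjusted p 0.00817 in DESeq2) missed the threshold in edgeR (adjusted p 0.230), and its call was also lost without R26-WT replicate 1 (2.35), R26-WT replicate 3 (2.05) or R26-TIR1(F74G) replicate 6 (2.21). It ran from 1.82 without R26-WT replicate 4 to 2.82 without R26-WT replicate 2. E2f8 had 23.9, 51.2, 4.07 and 1.69 against 44.3 to 265 (median 82.3), and its log2 fold change of 2.42 (SE 0.85) was not called (adjusted p 0.157). Without R26-WT replicate 2, the highest of its group, it was 3.44 and called (DESeq2 adjusted p 0.00438), and with a surrogate variable 2.41 and called. Over all fits without a library it ran from 1.91 to 3.44. Exons of Gm2788 on the opposite strand cover 20.7% of those of E2f8.

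E2f4, the repressor-type factor of the DREAM assembly and the most abundant E2F gene per kb, had 7178, 7449, 6551 and 6526 in R26-WT and 7226 to 8109 (median 7468) in R26-TIR1(F74G) (95% interval of the log2 fold change -0.04 to 0.28). Per kb it exceeded E2f1 by 32.7 ± 5.61 times in R26-WT (SD, n = 4) and 14.7 ± 2.81 times in R26-TIR1(F74G) (SD, n = 6). E2f5, its close relative, ran from 966 to 1247 in R26-WT and from 636 to 924 in R26-TIR1(F74G). The groups did not overlap, and the log2 fold change of -0.43 (SE 0.13) did not pass the test (DESeq2 adjusted p 0.066, edgeR 0.245). In the reference transcripts 36.0% of its 50-base stretches also occur in other genes on either strand, all of them in Rbis. These transcripts are of a later release than the counts, whose annotation has Rbis exons on the opposite strand over 1.46% of those of E2f5. How far this affects the count of E2f5 was not tested. E2f5 was called lower without R26-TIR1(F74G) replicate 10, at -0.47, with a trend on gene length removed, at -0.41, and with a surrogate variable, at -0.39. E2f6 had a log2 fold change of 0.07, and the DP partners Tfdp1 and Tfdp2 0.37 (adjusted p 0.187) and 0.14. Tfdp1 was called higher without R26-WT replicate 2, at 0.47, and with a surrogate variable, at 0.32.

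**Figure D3:**
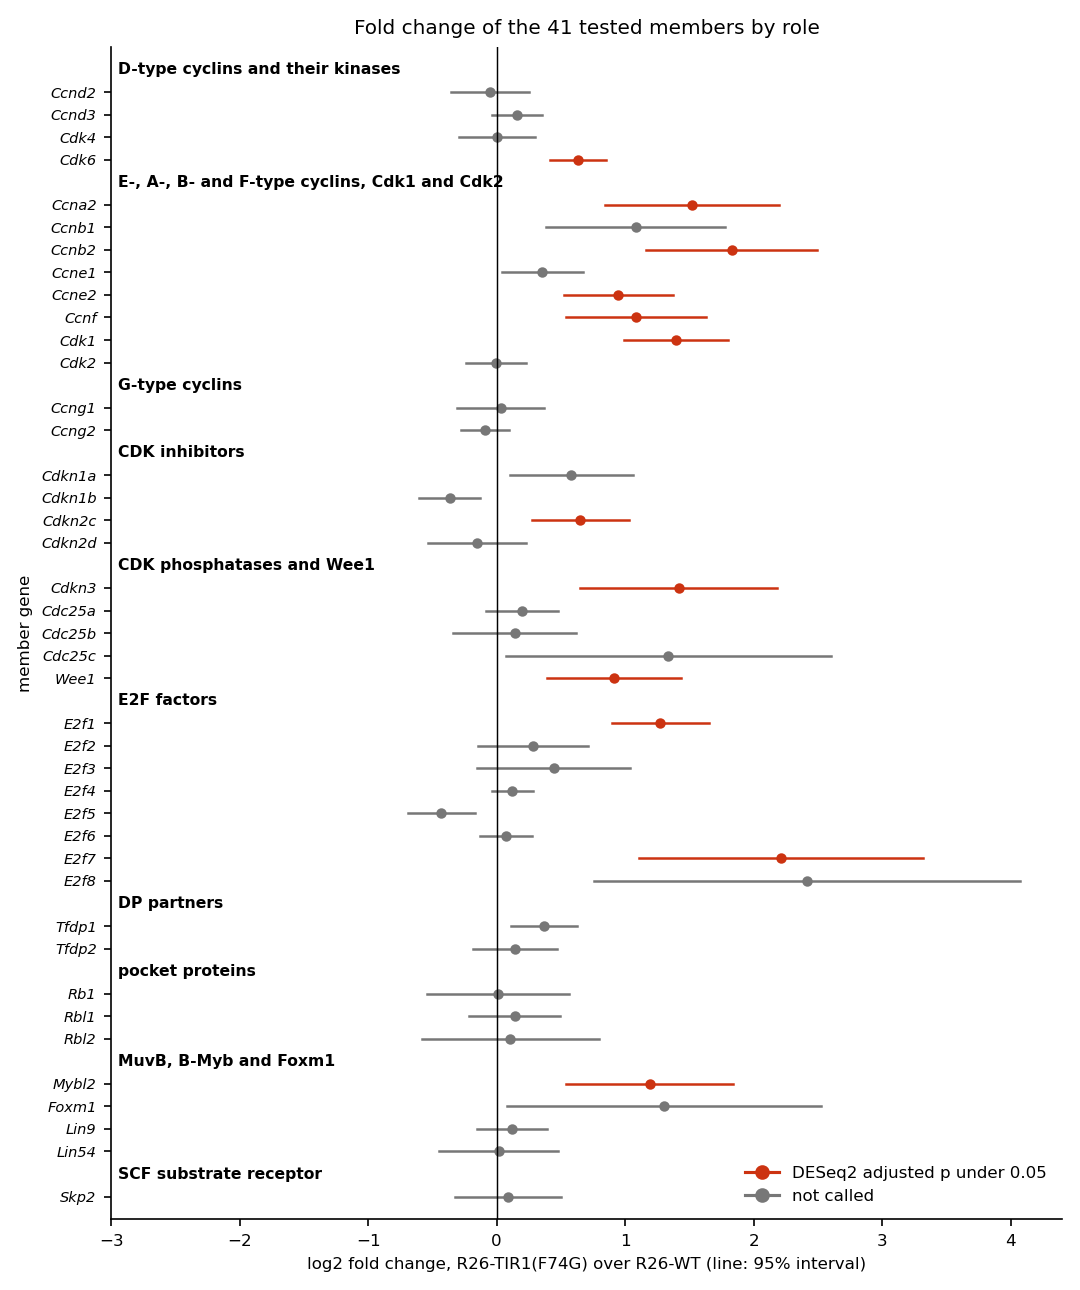
Log2 fold change of R26-TIR1(F74G) over R26-WT for the 41 tested members, grouped by role, with lines for the 95% interval and red for a DESeq2 adjusted p under 0.05. The 12 called members lie to the right of 0, and the widest intervals are those of E2f8, Cdc25c, Foxm1 and E2f7.

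B-Myb (Mybl2), which takes over MuvB from the DREAM assembly as cells enter the cycle, had 90.8, 76.7, 72.4 and 60.04 in R26-WT and 102 to 348 (median 143) in R26-TIR1(F74G), without overlap. Its log2 fold change was 1.19 (SE 0.33, adjusted p 0.0246 in DESeq2 and 0.245 in edgeR). It was not called without R26-WT replicate 2, 3 or 4 or without R26-TIR1(F74G) replicate 8 or 10, with values from 1.10 to 1.22. R26-TIR1(F74G) replicate 7 stood apart at 348, the next library being at 182, and in the reference transcripts 16.7% of the 50-base stretches of Mybl2 also occur in other genes. Foxm1, the forkhead factor of G2/M genes, had 81.2, 163, 38.3 and 27.1 against 85.2 to 475 (median 144) and was not called (log2 fold change 1.30, SE 0.62). Without R26-WT replicate 2 it was 1.97 and called (DESeq2 adjusted p 0.00604), and with a surrogate variable 1.08 and called. Over all fits without a library it ran from 0.79 to 1.97. The MuvB members Lin9 and Lin54 and the SCF receptor Skp2, which targets p27 for destruction, had log2 fold changes of 0.12, 0.02 and 0.09.

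The pocket proteins, the main brakes on E2F factors, were not called, and their libraries varied more within the groups than between them. Rb1 had 3874, 3861, 2118 and 1859 in R26-WT and 1909 to 4484 (median 2969) in R26-TIR1(F74G) (log2 fold change 0.01, SE 0.28). Rbl2 (p130), the pocket protein of resting cells, had 5600.0, 7082, 2173 and 2810.0 against 2747 to 8786 (median 4345) (log2 fold change 0.11, SE 0.35), a range of 3.26-fold in R26-WT and 3.20-fold in R26-TIR1(F74G). Rbl1 (p107) had a log2 fold change of 0.14 (SE 0.18). Exons of other genes on the opposite strand cover 14.9% of those of Rb1 and 21.0% of those of Rbl2. Of the 50-base stretches of Rbl2 38.0% also occur in other genes, 31.4% in Aktip. Aktip is also among the genes that overlap Rbl2 on the opposite strand, so these shares are in part the same.

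Rb1, Rbl2 and Lin54 divided the libraries alike, and not by genotype. All 3 were high in R26-WT replicates 1 and 2 and R26-TIR1(F74G) replicates 5 and 7, and low in R26-WT replicates 3 and 4 and R26-TIR1(F74G) replicates 6 and 9. Cdk4 and Ccnd2 ran the other way, with those 4 libraries the highest of their groups. This division was noticed after the values were seen. The surrogate variable estimated over all genes was 0.452 and 0.362 in R26-WT replicates 3 and 4 and 0.229 and 0.309 in R26-TIR1(F74G) replicates 6 and 9, and below 0 in the other libraries. With that variable in the fit DESeq2 called 16 members higher and 2 lower, of 743 genes in all. Its part in the spread of single members was not tested.

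**Figure D4:**
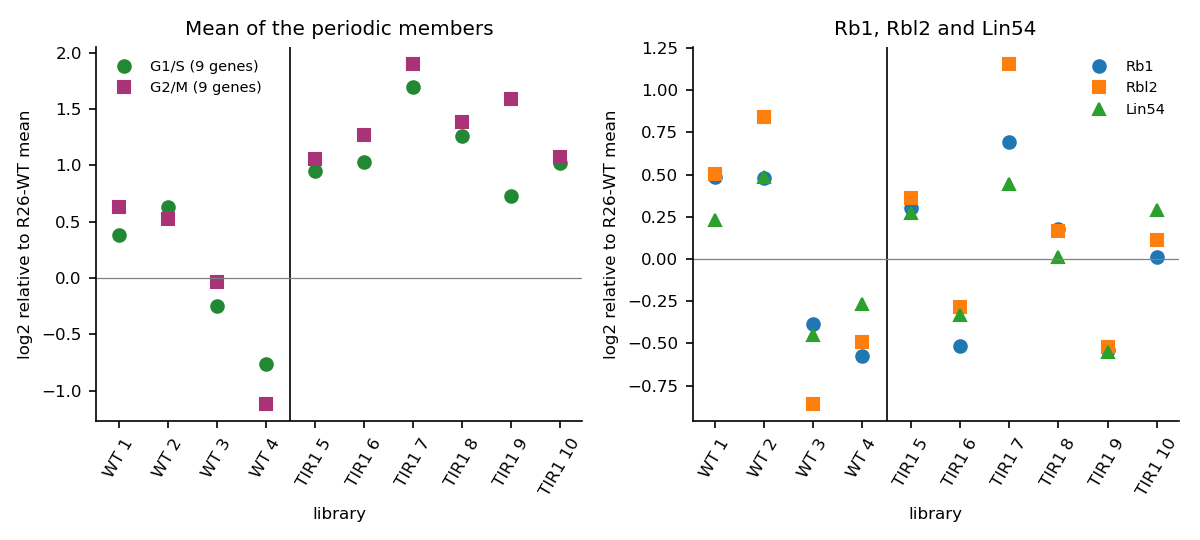
Log2 level relative to the R26-WT mean in each library, as log2(normalized count + 1), on the left as the mean of the 9 G1/S members and of the 9 G2/M members, on the right for Rb1, Rbl2 and Lin54. On the left the R26-TIR1(F74G) libraries (0.726 and above) lie above the R26-WT libraries (0.632 and below), which the summed counts of the same genes do not show, and on the right the groups overlap.

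By phase, 4 of the 9 G1/S members and 5 of the 9 G2/M members were called higher, against 3 of the 23 tested others. The median log2 fold change was 0.95 for G1/S, 1.33 for G2/M and 0.09 for the others, beside 0.00063 for all tested genes. All 18 periodic members had a positive log2 fold change. In R26-WT the mean level of the G2/M members relative to the R26-WT mean ran from -1.12 in replicate 4 to 0.630 in replicate 1 on the log2 scale, and in R26-TIR1(F74G) from 1.05 in replicate 5 to 1.90 in replicate 7. For the G1/S members the same ranges were -0.765 to 0.632 and 0.726 to 1.69. These means give each gene the same weight. Summed normalized counts, which the abundant members dominate, overlapped between the groups, from 6168 to 8925 in R26-WT and 7905 to 12569 in R26-TIR1(F74G) for G1/S and from 2138 to 4208 and 3677 to 6526 for G2/M. The R26-WT libraries thus spread over more than 1 log2 unit in both phases, with replicates 3 and 4 below 1 and 2.

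**Figure D5:**
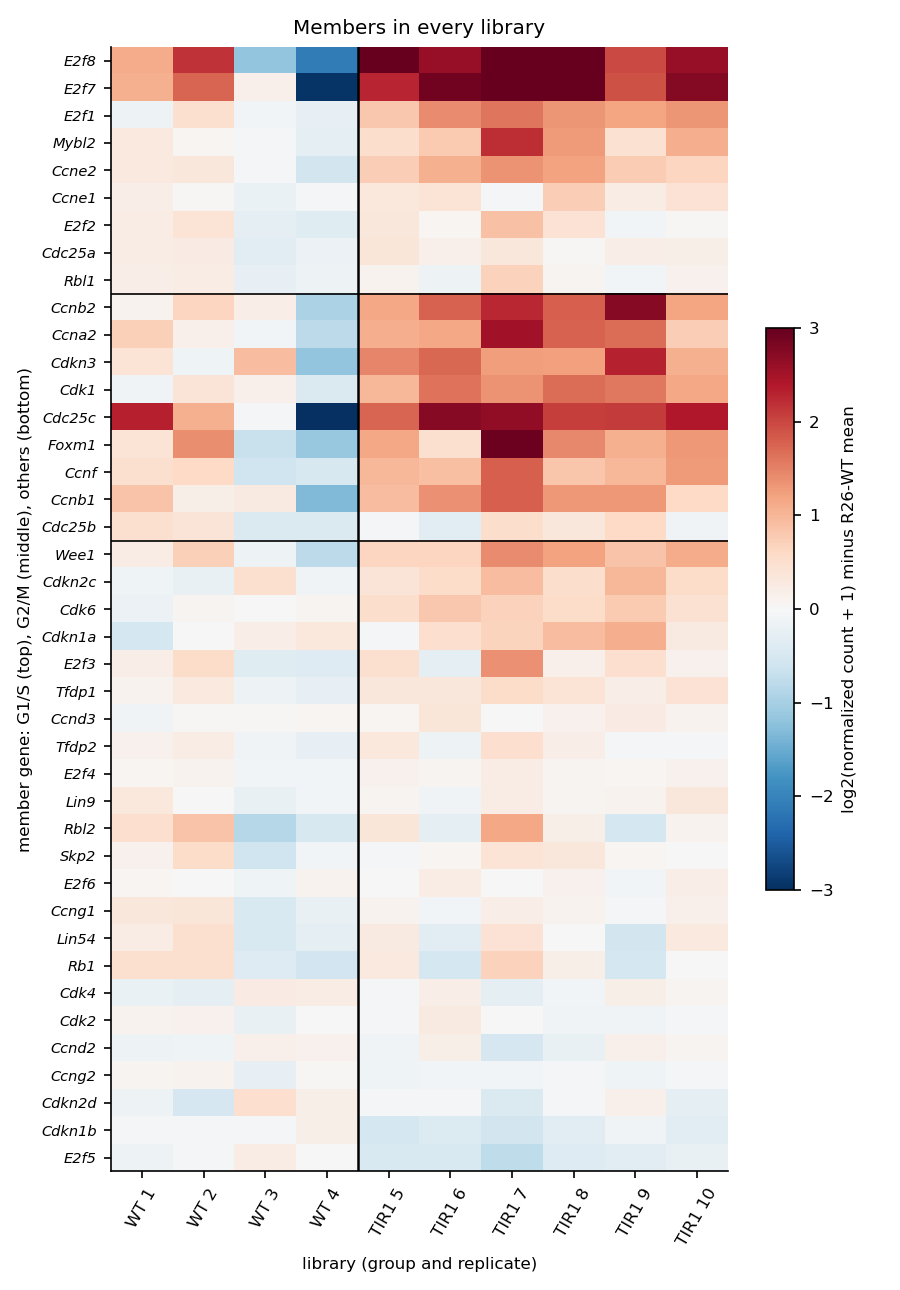
Log2(normalized count + 1) minus the R26-WT mean for the 41 tested members (rows, by phase and then fold change) in the 4 R26-WT and 6 R26-TIR1(F74G) libraries (columns), with colours saturated beyond a difference of 3 in either direction. Red fills the R26-TIR1(F74G) columns of the top 8 G2/M rows, R26-WT replicate 4 is the bluest column there, and the rows of Cdk4, Cdk2, Ccnd2 and Ccng2 stay pale.

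Other genes of cell cycle control were read from a list of 24. Of the 21 that were tested 4 were called higher and 0 lower by DESeq2 (7 had an unadjusted p under 0.05), and 1 was called by edgeR. The mitotic kinases Aurkb, Plk1 and Aurka had log2 fold changes of 1.66 (SE 0.27, adjusted p 5.60e-07 in DESeq2 and 0.0237 in edgeR), 1.04 (SE 0.27, adjusted p 0.00780) and 0.70 (SE 0.20, adjusted p 0.0362), and the Cdk subunit gene Cks1b 0.65 (SE 0.16, adjusted p 0.00410). Aurkb had 61.7 to 132 normalized counts in R26-WT and 222 to 487 in R26-TIR1(F74G). Mki67, the usual mark of cycling cells, had 58.6 to 214 and 203 to 835 (log2 fold change 1.70, SE 0.40, adjusted p 0.00253 in DESeq2 and 0.176 in edgeR). The list's median log2 fold change was 0.06.

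The lists of quiescence-linked genes, p53 targets and mitogenic input held no call. Of 14 quiescence-linked genes, such as the Foxo, Klf and Btg genes, DESeq2 called 0 (edgeR 0), with a median log2 fold change of -0.10. At an unadjusted p under 0.05 DESeq2 had 3 of them, all lower, where 2.68% of all tested genes were lower. They were Foxo1 (log2 fold change -0.27), Foxo3 (-0.36) and Klf6 (-0.37), named after their values were seen. Of 12 tested p53 targets DESeq2 called 0 (0 with an unadjusted p under 0.05, edgeR 0; median -0.02). Of 13 tested genes of mitogenic input, among them Myc and the interleukin-2 receptor genes, it also called 0 (0 unadjusted, edgeR 0; median 0.01).

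The libraries were checked against cell markers. The summed normalized counts of 11 Treg cell markers were 291703 to 309638 in R26-WT and 265003 to 283884 in R26-TIR1(F74G), so that the groups did not overlap, and 0 of the 11 were called by DESeq2 (4 with an unadjusted p under 0.05, edgeR 0). Abundant genes dominate these sums, among them Il2rb and the general T cell genes Cd3e, Cd3g and Cd5. How often such sums of other genes would not overlap was not counted. Foxp3 transcript, which the degron does not act on, had 6816 to 11779 and 6778 to 16059 normalized counts. Of other lists, activated Treg markers had 2 of 12 called higher (Tigit and Ccr2) and 1 lower (Tnfrsf9), resting T cell markers 1 of 8 higher (Tcf7), and CD8 and NK markers 1 of 6 tested higher (Eomes), genes named after their values were seen. These calls are those of DESeq2, which called 1.4% of all tested genes higher and 0.336% lower. edgeR called 0, 0 and 1 genes of these lists, and DESeq2 had 4, 1 and 1 at an unadjusted p under 0.05. B cell markers summed to 865 to 1397 in R26-WT and 734 to 1205 in R26-TIR1(F74G), nearly all from Cd79a and Cd79b, with Ms4a1 at no more than 4 read pairs and Pax5 at no more than 3. Myeloid markers summed to 26.2 to 43.0 and 21.2 to 47.2, with Cd14, S100a9 and Itgax at 0 in all libraries. CD8 and NK markers summed to 1994 to 2665 and 1689 to 2609, mostly from Cd8b1 and Nkg7, with Cd8a at no more than 41 read pairs and Ncr1 at 0. Erythroid markers summed to 727 to 2037 and 927 to 2442, nearly all from Tfrc, which dividing T cells also express. Plasma cell markers summed to 10331 to 11153 and 9804 to 12578, mostly from Xbp1 and Irf4, which T cells also express, with Tnfrsf17 at 0, and 0 genes of these 2 lists were called by DESeq2 or edgeR, with 1 at an unadjusted p under 0.05 in DESeq2. The part of cell state or of other cells in the members' differences was not tested.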

How the data were processed

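Bulk RNA-seq libraries of Treg cells (4 R26-WT, 6 R26-TIR1(F74G)) were compared. The deposited values were raw counts of read pairs per gene name, 1 library per file, without any scaling by the authors. The headers of these files show that featureCounts 2.1.1 was run with GENCODE release M30 (GRCm39), keeping primary pairs with both mates mapped and a mapping quality of at least 30 and giving no strand option; pairs that overlap several genes were left out. The methods name STAR for alignment, and the submitters' processing notes Bowtie2. The cDNA was amplified by PCR without molecular identifiers, so counting error is a lower limit.

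Members were matched by gene name. In R 4.3.3, DESeq2 1.42.0 (Wald test, two-sided, with only genotype in the model) was fitted to 16363 genes whose mean count reached 10, and p-values were adjusted over all of them (Benjamini-Hochberg, threshold 0.05). DESeq2 gave no adjusted p for 6 genes. edgeR 4.0.16 (quasi-likelihood) and limma 3.58.1 (voom with quality weights) were alternatives, as were TMM size factors, other filters, a threshold of 0.1, a trend on gene length removed, 1 surrogate variable (sva 3.50.0) and leaving out each library. The tests were first run on simulated counts. Levels per kb are normalized counts divided by the exon length in the files. For called members and for a fixed group of cell cycle entry and restraint genes, each R26-WT value and the lowest, median and highest R26-TIR1(F74G) values are given. By the naming rule, genes outside the members are those called in the lists of other cell cycle control, quiescence, p53 targets and mitogenic input, with Mki67 and Foxp3. Other genes of the lists and markers were named after their values were seen. The members and lists were chosen with earlier results of these data known. The library names in the labels number a mouse for each library, and the libraries were treated as replicates. Promoter sequences came from RefSeq (GRCm38.p6), and no coordinates were carried between builds.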

Additional observations from a re-analysis of the deposited data

Results flagged for a closer look

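In 9 of 82 groups of values of single members, 1 library stood apart from the others by more than Dixon's 95% limit, where about 1 in 20 groups, here 4.1, would by chance. R26-TIR1(F74G) replicate 7 was the library in 5 of them, all of them high. It had 265 normalized counts of E2f8 (the others 44.3 to 101), 475 of Foxm1 (85.2 to 168), 348 of Mybl2 (102 to 182), 593 of E2f3 (189 to 324) and 4957 of Rbl1 (2773 to 3364). R26-TIR1(F74G) replicate 6 was high in Cdk2, at 3284 (2538 to 2769). In R26-WT, replicate 4 was high in Cdkn1b, at 2298 (1939 to 1953), replicate 3 high in Cdkn2c, at 431 (262 to 284), and replicate 1 low in Ccnd3, at 15391 (16926 to 17223). Mybl2 and Cdkn2c were called higher. Without R26-TIR1(F74G) replicate 7 the log2 fold change of Mybl2 was 0.85 and without R26-WT replicate 3 that of Cdkn2c was 0.84.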

How the results depend on the processing

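No paired analysis was possible because the labels number the R26-WT libraries 1 to 4 and the others 5 to 10. The 12 called members kept their sign in every alternative in which they were tested (Cdkn3 was left out by a filter at a mean count of 50), and E2f1 and Cdk1 kept their call in all of them. Against 12 members called higher and 0 lower, 284 genes called in all and 4 called in the pathway lists, edgeR called 3 members, 61 genes and 1 list gene, and limma voom 3, 80 and 1. With a surrogate variable 2 members were called lower, with 743 genes and 9 list genes; with a length trend removed, 1 member, and at an adjusted p under 0.1, also 1. Without R26-WT replicate 4 and R26-TIR1(F74G) replicate 7 together, chosen after the data were seen, 7 members were called higher, with 159 genes and 1 list gene. Leaving out each library in turn gave 7 (without R26-WT replicate 4) to 12 members higher, 0 to 1 lower, 187 to 346 genes and 1 to 5 list genes. The cause of these shifts was not tested. Of the uncalled members, 12 changed sign in some alternative. Over the fits without a library, the log2 fold change ran from -0.11 to 0.0197 for Ccnd2, -0.10 to 0.15 for Ccng1, -0.0742 to 0.0373 for Cdk2, -0.0848 to 0.0864 for Cdk4, -0.15 to 0.17 for Rb1, -0.16 to 0.43 for Rbl2, -0.12 to 0.20 for Lin54, -0.30 to 0.0380 for Cdkn2d and -0.0777 to 0.30 for Skp2. With no filter Cdk4 was at 0.00084. With the length trend removed Rb1 was at -0.0528 and Lin54 at -0.0402. With the surrogate variable Ccnd2 was at 0.0102, Ccng1 -0.0176, Cdk4 0.0887, Rb1 -0.16, Rbl2 -0.0840 and Lin54 -0.11. Without both libraries Ccnd2 was at 0.0657, Ccng1 -0.0725, Cdk4 0.13, Rb1 -0.32, Rbl1 -0.0493, Rbl2 -0.33, Tfdp2 -0.0206, Cdc25b -0.0678, Lin54 -0.16 and Skp2 -0.0181. Ccnd1 (2 to 20 read pairs) fell under the filter on low counts, and E2f7, E2f8, Cdc25c and Cdkn3 had 10 or fewer read pairs in R26-WT replicate 4.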
